A study of Mus musculus with 47 samples.

Results

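The basal and luminal epithelial cells of the mammary gland of 10-week-old mice were compared in 6 RNA-seq libraries, 3 basal and 3 luminal, out of 46 libraries with values (47 are described). The 6 were taken by their labels, as replicates 3, 5 and 6 of the time point. All came from FVB/N females that had not been pregnant. The study followed both cell types over 8 time points, from these mice through pregnancy, lactation and involution, the regression of the gland after weaning. The time points also include FVB/N mice of 4 months that had not been pregnant. Basal cells were sorted as lineage-negative CD24+ CD29hi cells and luminal cells as lineage-negative CD24+ CD29lo cells. Both populations of a replicate came from the same pool of mice and the same sort, so each replicate is a pair. Each library thus averages over the mice of its pool and over every cell type inside the gate. The 6 libraries shared a sequencing lane (lane 2) and an RNA amplification batch (batch 4). They held 12847730, 8113350 and 10649797 reads on genes in basal replicates 3, 5 and 6, and 8378344, 11438112 and 6551784 in luminal replicates 3, 5 and 6. Values below are always given in that order of replicates, in CPM, the read count of a gene scaled to the size of its library by the authors.

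The mammary epithelium has an inner layer of luminal cells, which produce milk and carry the receptors for ovarian hormones and prolactin, and an outer layer of basal cells on the basement membrane. Most basal cells are myoepithelial, with a smooth-muscle-like contractile apparatus that squeezes milk along the ducts in response to oxytocin. The layers also signal to one another, with many ligands made in one layer and their receptors in the other.

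Of 17078 genes tested, 1773 were called higher in basal cells (10.4%) and 1079 higher in luminal cells (6.32%). A gene was called in limma, with the sort as a replicate block, where the log2 difference was at least 1 in size and its p adjusted over all genes (Benjamini-Hochberg) was under 0.01. Differences are basal minus luminal on log2(CPM + 1), with the standard error (SE), a scale on which changes of weakly read genes come out too small. The median difference over all genes was 0.01. In 1756 of the basal calls and 1045 of the luminal calls the 3 libraries of one cell type lay wholly above those of the other. Over all 17078 genes tested this was so for 4104 genes with basal libraries above and 3139 with luminal libraries above. Differences were wider on the basal side: 476 genes were called at 3 or more in the basal direction and 88 in the luminal direction. The largest basal difference was 7.39 and the largest luminal one -4.51. Of the basal calls, 103 had fewer than 3 reads in the 3 luminal libraries together, while 7 of the luminal calls had so few in the basal libraries. Without replicate 6 the calls numbered 1202 and 499, without replicate 3 they numbered 1291 and 751, and without replicate 5 they numbered 1478 and 880. In bulk samples, fewer cells of a type and less RNA per cell cannot be told apart.

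**Figure D1:**
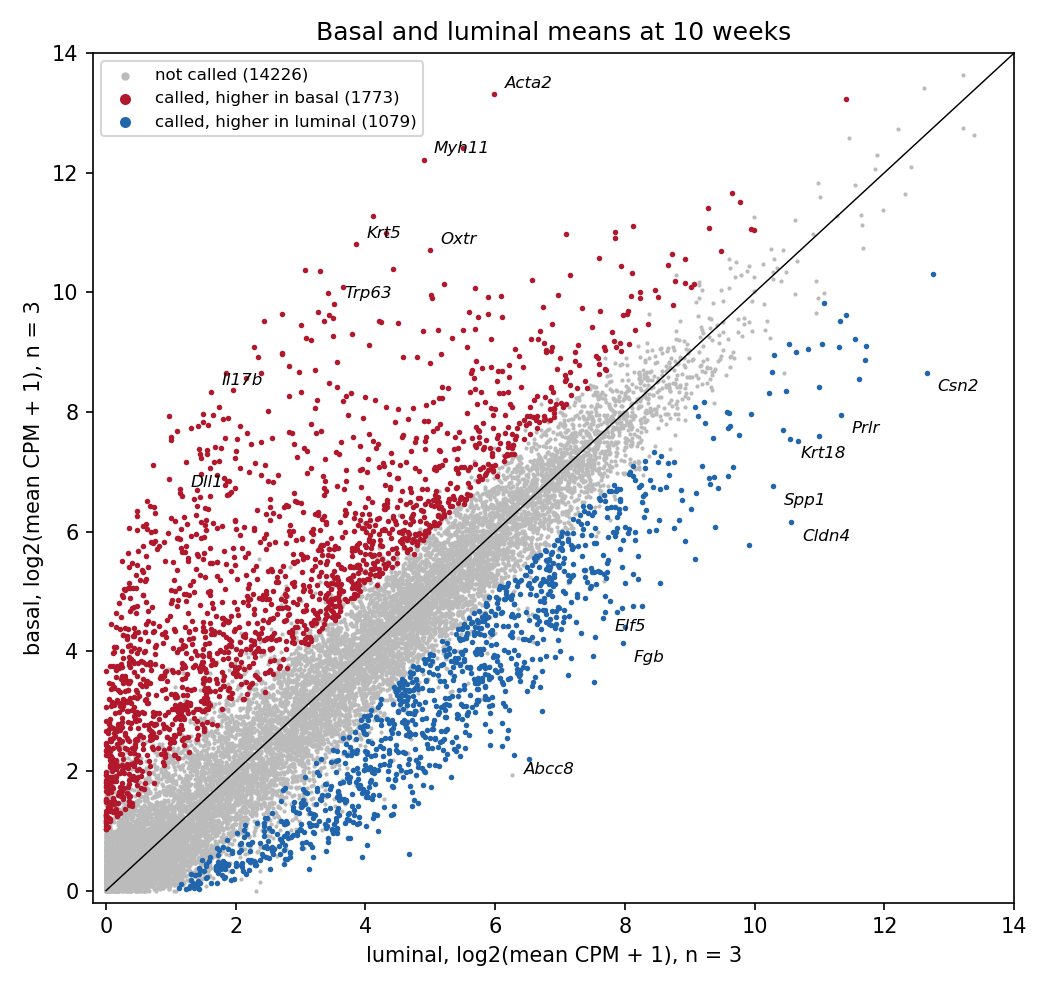
Mean level of each of 17078 genes in luminal cells (x axis) and basal cells (y axis) at 10 weeks, as log2 of the mean CPM of 3 libraries plus 1, with the line of equal levels. Red points are the 1773 genes called higher in basal cells and blue points the 1079 called higher in luminal cells. Red points reach farther from the line than blue points do.

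The sort markers and keratins were examined first, as a check on the labels. *Itgb1*, which encodes CD29, stood at 506, 520 and 622 CPM in basal cells and at 245, 328 and 308 CPM in luminal cells. Every basal library was above every luminal library, but the difference of 0.90 ± 0.20 (SE, adjusted p = 0.000493) was under the size needed for a call. *Cd24a*, which encodes CD24, had 505, 466 and 244 CPM in basal and 762, 1274 and 1659 CPM in luminal cells, and was called higher in luminal cells (-1.60 ± 0.35, adjusted p = 0.000468). It was not called in the model of the 6 libraries alone, by edgeR, or without replicate 6.

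Keratins form the intermediate filaments of epithelial cells. *Krt5* stood at 1879, 1469 and 1997 CPM in basal cells and at 17.9, 13.2 and 9.34 CPM in luminal cells (6.97 ± 0.71, adjusted p = 6.04e-10). *Krt14*, its partner in basal filaments, had 774, 458 and 625 CPM against 14.9, 7.43 and 8.46 CPM (5.81 ± 0.58, adjusted p = 4.70e-10). No luminal library came near a basal one for either gene. Of 6 basal keratins, 4 were called higher in basal cells (*Krt5*, *Krt14*, *Krt15* and *Krt17*) and none in luminal cells, with a list median of 5.07. The remaining members, *Krt16* and *Krt6a*, differed by 0.92 and 0.31 and were not called. All 4 simple-epithelial keratins were called higher in luminal cells, with a median of -3.08. *Krt18* had 1813, 1556 and 1133 CPM in luminal and 155, 337 and 68.3 CPM in basal cells (-3.26 ± 0.47, adjusted p = 1.27e-06). *Krt8*, its partner, had 623, 809 and 559 CPM in luminal and 99.6, 203 and 57.1 CPM in basal cells (-2.63 ± 0.38, adjusted p = 1.27e-06). The cell types did not overlap, and among basal libraries replicate 5 was the highest and replicate 6 the lowest for each of the 4 genes.

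**Figure D2:**
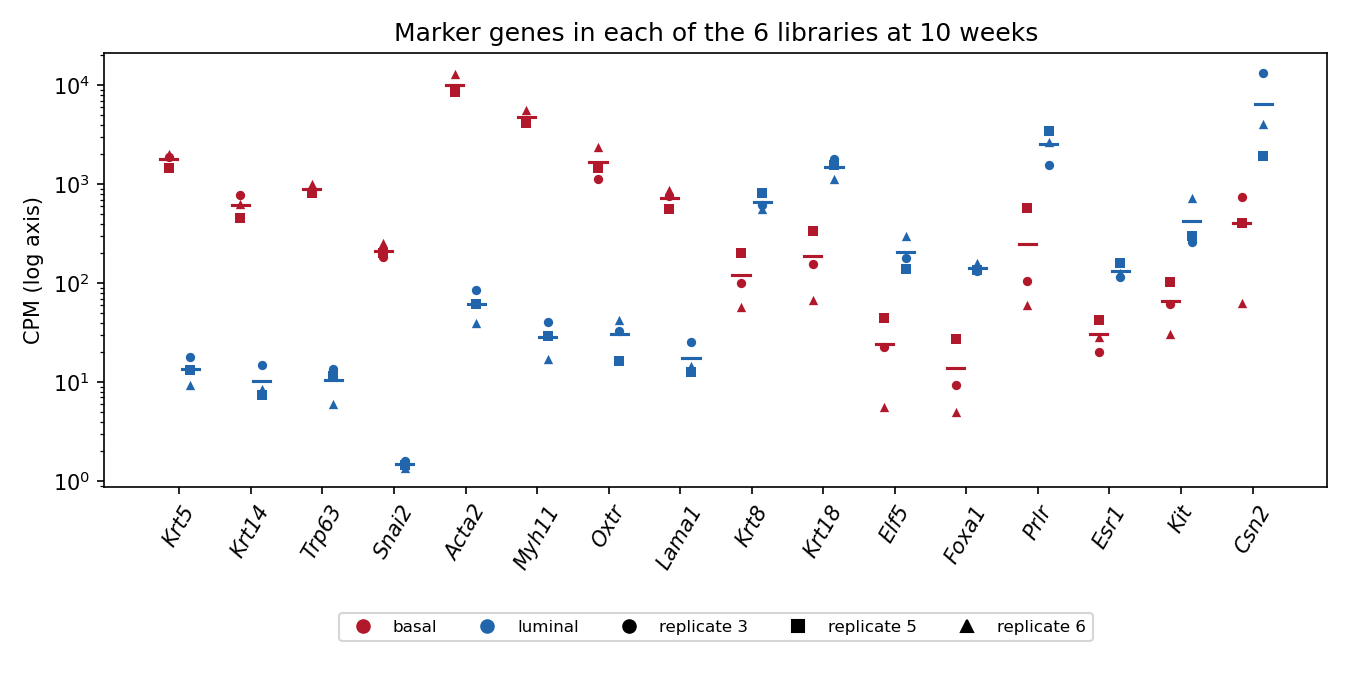
CPM (log axis) of 16 marker genes in each of the 6 libraries at 10 weeks, basal in red and luminal in blue, with the replicate given by the shape of the point and the mean of 3 libraries by a bar. The cell types do not overlap for any of these genes. Luminal genes spread more among basal libraries than basal genes do, as for *Prlr* with 104, 576 and 60.8 CPM in basal replicates 3, 5 and 6.

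The level of luminal genes in basal libraries differed between replicates. Summed over the 4 simple-epithelial keratins, basal replicates 3, 5 and 6 held 603, 1156 and 233 CPM, which is 13.6, 24.1 and 5.90% of the sums in the luminal libraries of the same sorts (4416, 4806 and 3950 CPM). The genes of hormone-sensing luminal cells gave 9.71, 18.4 and 5.43%, and the milk genes 11.5, 27.0 and 4.44%. Other luminal lists gave larger shares and not always that order: 95.5, 48.0 and 23.1% for luminal progenitor genes (led by *Lcn2*), 18.9, 40.8 and 34.7% for tight junction genes, and 48.9, 54.4 and 36.5% for luminal transcription factors. In the other direction, the summed basal keratins of luminal libraries were 1.74, 3.37 and 1.16% of those in basal cells. Shares of other basal lists in luminal libraries were larger: 8.05, 7.53 and 3.99% for the contractile apparatus, 13.4, 11.7 and 7.82% for basal transcription factors, 17.0, 16.03 and 11.8% for the basement membrane, 19.4, 10.4 and 4.85% for the interstitial matrix, and 37.3, 31.3 and 18.8% for the hemidesmosome list. Of the 1079 genes called higher in luminal cells, 767 (71.1%) had their highest basal value in replicate 5, 259 in replicate 3 and 53 in replicate 6. Of the 1773 basal calls, the highest luminal value was in replicate 3 for 37.4%, in replicate 5 for 29.7% and in replicate 6 for 32.9%. The paper reports low cross contamination between the populations when sorted cells were sorted again. Whether luminal cells in the basal gate, transcripts made by basal cells or RNA carried over gave these values was not tested. Replicates of a cell type had r² of 0.946 to 0.957 among basal libraries. Among luminal libraries r² was 0.968 between replicates 5 and 6 but 0.910 and 0.904 for luminal replicate 3 with each of them. Between the cell types r² was 0.674 to 0.813.

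Among the transcription factors linked to the basal lineage or the smooth muscle programme, 8 of 10 were called higher in basal cells and none in luminal cells (median 4.45). *Trp63* encodes p63, which maintains basal epithelia. It stood at 875, 810 and 999 CPM in basal and 13.7, 11.6 and 5.97 CPM in luminal cells (6.36 ± 0.64, adjusted p = 5.08e-10). *Snai2*, which encodes the repressor Slug, had 184, 202 and 252 CPM in basal and 1.61, 1.47 and 1.37 CPM in luminal cells (6.41 ± 0.45, adjusted p = 1.32e-13). *Irx4*, a homeobox gene, had 95.7, 55.6 and 90.8 CPM in basal cells and at most 0.504 CPM in a luminal library. For these 3 genes every basal library was far above every luminal library. *Myocd*, which encodes the smooth muscle coactivator myocardin, was low but called (2.15 ± 0.58), with 5.40, 2.77 and 5.96 CPM in basal cells. *Srf*, whose product binds myocardin, was not called (0.68 ± 0.28, adjusted p = 0.0648), and its values of 286, 165 and 217 CPM in basal and 225, 112 and 97.0 CPM in luminal cells overlapped.

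Of 16 transcription factors linked to the luminal lineage, 8 were called higher in luminal cells and none in basal cells (median -1.52). *Elf5*, a regulator of alveolar differentiation, stood at 179, 139 and 297 CPM in luminal and 22.5, 44.3 and 5.62 CPM in basal cells (-3.35 ± 0.48, adjusted p = 1.08e-06). *Foxa1*, a cofactor of the oestrogen receptor, had 134, 135 and 160 CPM in luminal and 9.39, 27.2 and 5.03 CPM in basal cells (-3.57 ± 0.59, adjusted p = 1.07e-05). The other members called were *Cited1*, *Ehf*, *Elf3*, *Grhl1*, *Myb* and *Spdef*. *Gata3*, a regulator of luminal fate, was not called: it had 127, 76.7 and 134 CPM in luminal and 112, 119 and 165 CPM in basal cells, a difference of 0.25 ± 0.26. *Tbx3*, *Grhl2*, *Stat5a*, *Klf5*, *Sox9*, *Hey1* and *Creb3l4* were not called either, with differences between -1.11 and 0.40.

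The contractile apparatus was the list with the most basal calls, 20 of 21 members, with a median of 3.95. *Acta2* encodes smooth muscle alpha-actin. It stood at 8825, 8588 and 13108 CPM in basal and 85.5, 61.8 and 39.3 CPM in luminal cells (7.37 ± 0.55, adjusted p = 5.65e-13). *Myh11*, the smooth muscle myosin heavy chain, had 4501, 4198 and 5586 CPM in basal and 40.1, 29.0 and 17.2 CPM in luminal cells (7.39 ± 0.58, adjusted p = 1.71e-12). In both genes basal replicate 6 was the highest and luminal replicate 6 the lowest library. *Mylk*, the kinase that phosphorylates the myosin light chain to start contraction, differed by 7.20 ± 0.52, and the light chain gene *Myl9* by 6.80 ± 0.60. *Cnn1*, which encodes the actin-binding calponin, had 860, 1302 and 1788 CPM in basal and 11.8, 8.76 and 5.97 CPM in luminal cells (7.05 ± 0.63). The smallest called difference was that of *Myl6*, a light chain also found outside muscle, with 76.6, 87.5 and 120 CPM in basal and 43.7, 47.6 and 38.8 CPM in luminal cells (1.09 ± 0.27, adjusted p = 0.00195). *Vcl*, which encodes the anchoring protein vinculin, differed by 1.24 ± 0.24, and 25.5% of its exon bases overlap another gene. *Des*, the muscle intermediate filament desmin, was the member not called (1.47 ± 0.57, adjusted p = 0.0498), with 2.44, 2.97 and 5.20 CPM in basal cells.

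Many smooth muscle genes are controlled by serum response factor and myocardin through the CArG box, so the promoters of the contractile list were searched for an exact match to its 10-base consensus. The consensus is its own reverse complement, so a single search covers both strands. Promoter sequences, 250 bases before to 50 after each start site, came from RefSeq (GRCm38.p6), which is a later build than that of the expression data. They were found for 18 of the 21 genes; *Actg2*, *Myh11* and *Tagln* had no entry. A match was present in 3 of 21 promoters of these genes (14.3%), and in 535 of all 32851 promoters (1.63%). The stretches that hold the matches are shown because they carry the motif, in capitals, in genes that were called higher in basal cells. They lie at chr2:156775263-156775352 (plus strand, *Myl9*), chr10:128493010-128493099 (minus strand, *Myl6*, in 1 of its 2 promoters) and chr14:20929148-20929220 (plus strand, *Vcl*).
Myl9: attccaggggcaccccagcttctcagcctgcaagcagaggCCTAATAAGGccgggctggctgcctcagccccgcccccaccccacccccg
Myl6: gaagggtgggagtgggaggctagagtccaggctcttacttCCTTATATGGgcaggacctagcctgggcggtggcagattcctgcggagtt
Vcl: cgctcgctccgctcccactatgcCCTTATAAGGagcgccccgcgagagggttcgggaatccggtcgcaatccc
The match begins 161 bases before the start site of *Myl9*, 50 before that of *Myl6* and 227 before that of *Vcl*. A match is a description of the letters and not evidence of binding, and genes without one in this window may hold it elsewhere.

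Of 9 receptors that can trigger contraction, 2 were called higher in basal cells and 1 in luminal cells (median 0.09). Over all genes tested, 10.4% were called higher in basal and 6.32% in luminal cells, so the list as a whole does not stand out. *Oxtr*, the oxytocin receptor, stood at 1133, 1460 and 2403 CPM in basal and 33.0, 16.5 and 42.8 CPM in luminal cells (5.74 ± 0.70, adjusted p = 3.56e-08), with every basal library far above every luminal library. *Ednrb*, an endothelin receptor, was called higher in basal cells (2.62 ± 0.56) from 9.17, 4.61 and 7.67 CPM. *Adra1a*, an alpha-1 adrenergic receptor, had 43.3, 35.0 and 23.9 CPM in luminal and 3.40, 4.92 and 1.36 CPM in basal cells (-3.11 ± 0.49, adjusted p = 5.30e-06). The models of the 6 libraries alone, by limma and by edgeR, called 4 of the 9 higher in basal cells, and with a pseudocount of 5 the basal calls numbered 1.

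Basal cells rest on a basement membrane of laminins, nidogens, perlecan and network collagens, and hold to it through hemidesmosomes. Of 15 basement membrane genes, 10 were called higher in basal cells and none in luminal cells (median 2.73). *Lama1* stood at 759, 568 and 867 CPM in basal and 25.2, 12.7 and 14.4 CPM in luminal cells (5.35 ± 0.37, adjusted p = 1.01e-13). *Col4a2*, a chain of the main network collagen, had 1614, 1094 and 1297 CPM in basal and 25.7, 17.1 and 18.6 CPM in luminal cells (5.96 ± 0.37, adjusted p = 9.30e-15). *Lama5*, another laminin chain, went the other way without being called (-0.45 ± 0.42), with overlapping values of 211, 274 and 250 CPM in basal and 424, 331 and 265 CPM in luminal cells. In the list of hemidesmosome genes and laminin-332, 7 of 9 were called higher in basal cells (median 1.80), led by *Col17a1* with 651, 684 and 862 CPM against 13.1, 9.39 and 5.35 CPM (6.22 ± 0.68, adjusted p = 3.15e-09). *Lama3* and *Lamb3*, which encode laminin chains, were called, at 4.44 and 3.22. *Itgb4* and *Plec*, which join the hemidesmosome to the cytoskeleton, were not called (0.44 and 0.01), and without replicate 6 the calls of this list numbered 4.

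Of 21 interstitial matrix genes, 12 were called higher in basal cells and none in luminal cells (median 3.83). *Sparc*, a collagen-binding glycoprotein, stood at 4477, 4936 and 6994 CPM in basal and 56.0, 48.3 and 28.9 CPM in luminal cells (6.94 ± 0.52, adjusted p = 5.65e-13). *Postn* (6.74 ± 0.75), *Fbn1* (6.30 ± 0.67) and *Bgn* (6.17 ± 0.63), which encode periostin, fibrillin-1 and biglycan, had differences of similar size. The collagens *Col1a1*, *Col1a2* and *Col3a1*, which fibroblasts make in quantity, were not called, although each was higher in basal cells in every pair. *Col1a1* differed by 2.00 ± 0.99 and *Col3a1* by 2.64 ± 1.10, with overlapping values. *Col1a2* had 50.6, 22.7 and 63.7 CPM in basal and 7.66, 1.89 and 2.86 CPM in luminal cells (3.22 ± 1.01, adjusted p = 0.0140), and basal replicate 5 was the lowest of the basal libraries. *Dcn*, another fibroblast product, had its highest value in luminal replicate 5: 142, 156 and 164 CPM in basal and 59.6, 394 and 97.0 CPM in luminal cells.

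Tight junctions seal the luminal layer. Of 13 tight junction genes, 10 were called higher in luminal cells and none in basal cells (median -2.64). *Cldn4* stood at 3214, 767 and 563 CPM in luminal and 67.3, 127 and 17.1 CPM in basal cells (-4.37 ± 0.64, adjusted p = 1.29e-06), and luminal replicate 3 was over 4 times as high as the other luminal libraries. *Tjp1*, which encodes the scaffold ZO-1, had 502, 468 and 461 CPM in basal and 487, 484 and 472 CPM in luminal cells, a difference of -0.01 ± 0.21. Without replicate 6 the calls in this list numbered 6. Of 19 cadherins, desmosome proteins and connexins, 5 were called higher in basal cells and 4 in luminal cells (median 0.92). *Cdh3*, P-cadherin, had 423, 372 and 700 CPM in basal and 9.88, 3.99 and 2.86 CPM in luminal cells (6.34 ± 0.64, adjusted p = 6.81e-10). *Cdh1*, E-cadherin, had 613, 631 and 298 CPM in basal and 1473, 1851 and 1431 CPM in luminal cells (-1.69 ± 0.32, adjusted p = 6.55e-05). *Gja1*, connexin 43, was higher in basal cells (4.58 ± 0.59) and *Gjb2*, connexin 26, in luminal cells (-2.69 ± 0.61). The models of the 6 libraries alone called 9 members of this list higher in basal cells, and without replicate 6 the luminal calls numbered 2.

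Hormone-sensing luminal cells carry receptors for oestrogen, progesterone and prolactin and pass the signal on through secreted factors. Of 15 genes of this group, 9 were called higher in luminal cells (median -2.53). *Prlr*, the prolactin receptor, stood at 1572, 3455 and 2685 CPM in luminal and 104, 576 and 60.8 CPM in basal cells (-3.98 ± 0.72, adjusted p = 4.03e-05). *Esr1*, oestrogen receptor alpha, had 115, 159 and 127 CPM in luminal and 20.4, 42.4 and 28.5 CPM in basal cells (-2.15 ± 0.32, adjusted p = 1.71e-06). *Pgr*, the progesterone receptor, missed the threshold (-1.95 ± 0.59, adjusted p = 0.0114), although its luminal values of 118, 112 and 187 CPM were all above the basal values of 30.2, 36.7 and 36.3 CPM. The secreted factors *Areg*, amphiregulin, and *Wnt4* were called higher in luminal cells (-3.69 ± 0.69 and -3.01 ± 0.62). *Calca*, which encodes calcitonin, had 226, 0.771 and 0 CPM in luminal and 8.28, 0.205 and 0 CPM in basal cells, and so was found almost entirely in the mice of replicate 3.

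Genes linked to luminal progenitors gave 8 of 12 calls in the luminal direction and none in the basal (median -2.47). *Kit*, the stem cell factor receptor, stood at 259, 303 and 727 CPM in luminal and 62.3, 104 and 31.0 CPM in basal cells (-2.69 ± 0.53, adjusted p = 0.000139). *Lcn2*, an iron-binding secreted protein, was not called (-0.70 ± 0.43, adjusted p = 0.243), and its value in basal replicate 3, 4683 CPM, was above that in luminal replicate 3, 3077 CPM. *Itgb3*, which encodes CD61, had 66.5, 47.0 and 87.1 CPM in basal and 30.3, 41.9 and 59.6 CPM in luminal cells and was not called (0.60 ± 0.50). Without replicate 6 the luminal calls of this list fell to 2.

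Milk genes were already measurable in these mice that had never lactated. Of 13, 10 were called higher in luminal cells and none in basal cells (median -2.62). *Csn2*, beta-casein, stood at 13376, 1925 and 4024 CPM in luminal and 739, 406 and 62.4 CPM in basal cells (-4.14 ± 0.74, adjusted p = 3.58e-05). *Lalba*, alpha-lactalbumin, had 169, 34.9 and 68.6 CPM in luminal and 4.51, 5.23 and 1.02 CPM in basal cells (-4.19 ± 0.74, adjusted p = 2.66e-05). Luminal replicate 3 was the highest library for both. *Wap*, whey acidic protein, was low in every library and not called, with 15.1, 1.19 and 1.25 CPM in luminal cells. Without replicate 6 the milk gene calls numbered 4. Of 12 genes for fatty acid and triglyceride synthesis, 5 were called higher in luminal cells (*Acly*, *Lpin1*, *Me1*, *Scd1* and *Thrsp*) and none in basal cells (median -1.05). *Fasn*, fatty acid synthase, had 740, 190 and 311 CPM in luminal and 217, 148 and 130 CPM in basal cells and was not called (-1.13 ± 0.42, adjusted p = 0.0401). Without the replicate block, without replicate 3 and without replicate 6 the calls of this list numbered 3, 3 and 2.

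**Figure D3:**
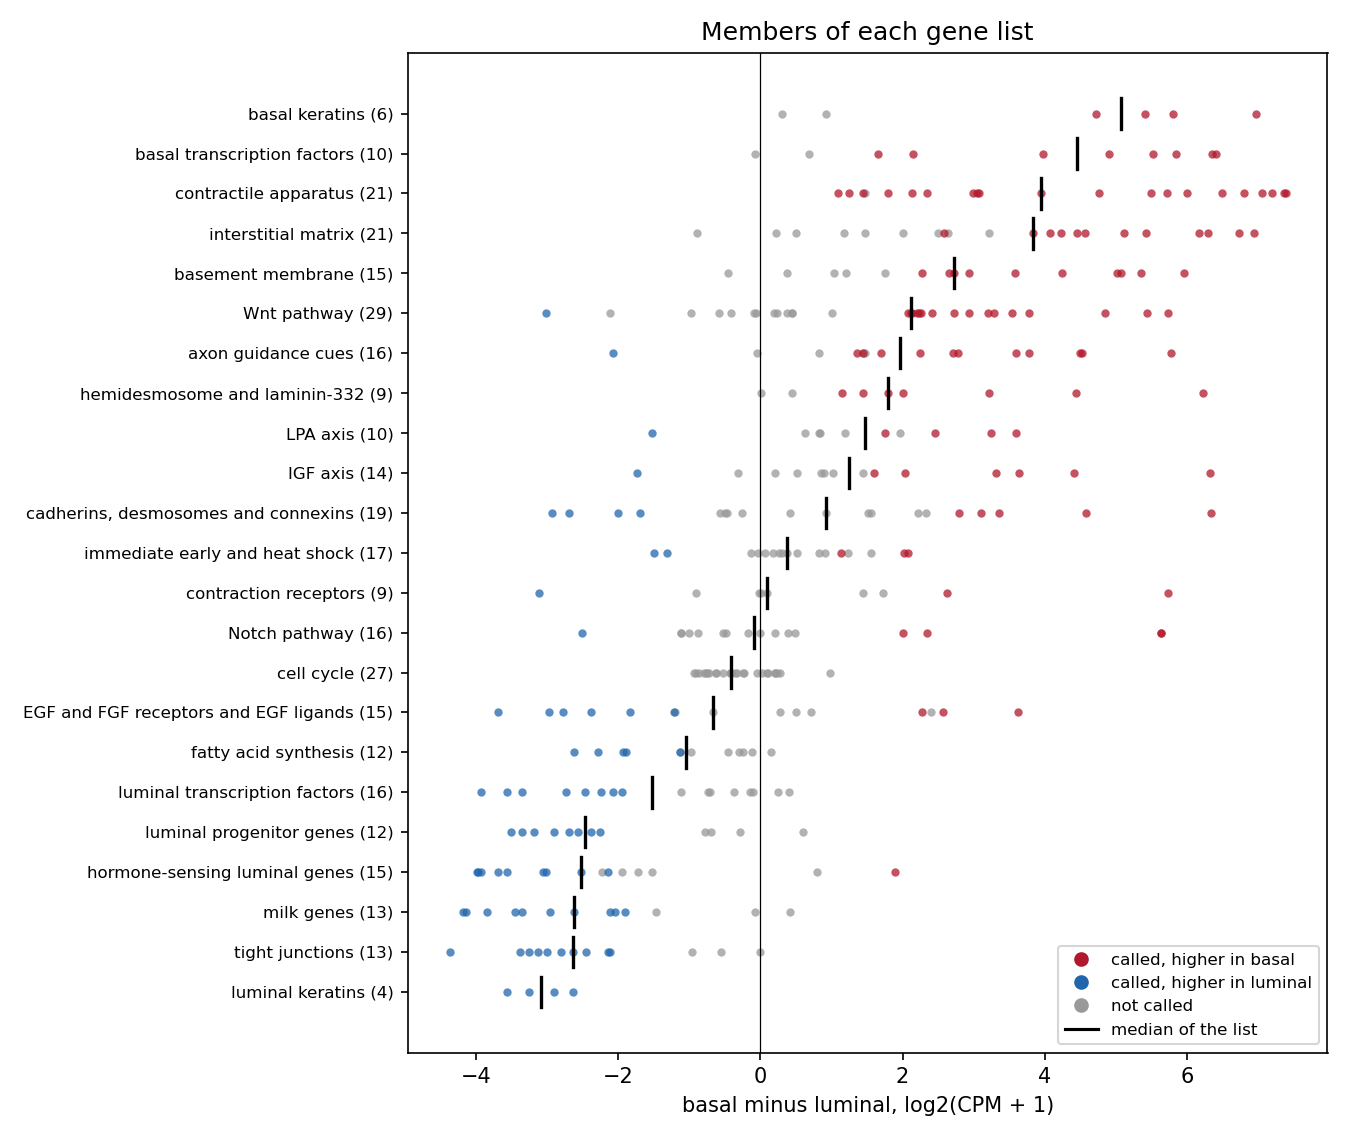
Difference between basal and luminal cells, on log2(CPM + 1), of each member of 23 gene lists, ordered by the list median (black bar), with the number of members in the table in parentheses. Red and blue points were called higher in basal and luminal cells and grey points were not called. Medians run from 5.07 for basal keratins to -3.08 for luminal keratins, and no cell cycle gene was called.

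In the Notch pathway, ligands on one cell activate receptors on its neighbour. Of 16 genes, 4 were called higher in basal cells and 1 in luminal cells (median -0.09). The basal calls were the ligands *Jag1*, *Jag2* and *Dll1* and the modifier *Lfng*. *Dll1* stood at 108, 81.5 and 108 CPM in basal and 2.62, 0.491 and 0.498 CPM in luminal cells (5.63 ± 0.45, adjusted p = 2.28e-12). The luminal call was the receptor *Notch3*, with 208, 155 and 197 CPM in luminal and 19.7, 50.1 and 32.2 CPM in basal cells (-2.51 ± 0.45, adjusted p = 3.42e-05). The receptors *Notch1* (-1.01 ± 0.34, adjusted p = 0.0228) and *Notch2* (-0.49 ± 0.26) and the targets *Hes1*, *Hey1*, *Hey2* and *Heyl* were not called. The ligand *Dll4* (0.49 ± 0.39) and the receptor *Notch4* (-0.18 ± 0.47) were not called either. The luminal side thus rests on 1 of 16 genes, while 6.32% of all genes tested were called higher in luminal cells.

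The Wnt pathway maintains mammary stem and progenitor cells. Of 29 genes, 16 were called higher in basal cells and 1 in luminal cells (median 2.12). Among ligands, *Wnt4* was called higher in luminal cells, with 160, 105 and 62.4 CPM against 14.9, 23.3 and 4.34 CPM in basal cells, while *Wnt6*, *Wnt10a* and *Wnt11* were called higher in basal cells. *Wnt10a* had 22.0, 8.30 and 10.9 CPM in basal cells, and in luminal cells it was read in replicate 3 only, at 0.605 CPM. *Wnt5a*, by contrast, had 82.4, 103 and 145 CPM in basal and 62.8, 138 and 161 CPM in luminal cells, with no call. Among receptors, *Fzd7* stood at 689, 864 and 1336 CPM in basal and 25.2, 30.6 and 39.1 CPM in luminal cells (4.85 ± 0.40, adjusted p = 6.22e-12). *Lgr5*, a receptor for R-spondins, had 113, 201 and 194 CPM in basal and 1.11, 2.66 and 2.86 CPM in luminal cells (5.73 ± 0.54, adjusted p = 9.98e-11). *Fzd1*, *Fzd2*, *Fzd3*, *Lgr4* and *Lgr6* were also called higher in basal cells, whereas the coreceptors *Lrp5* and *Lrp6* were not called (0.19 and 0.44). *Axin2*, a direct target of the pathway, had 26.0, 18.8 and 33.1 CPM in basal and 2.62, 0.420 and 0.373 CPM in luminal cells (3.78 ± 0.46, adjusted p = 3.17e-08). *Rspo1*, an R-spondin, had its higher values in luminal cells, 71.5, 19.97 and 26.6 CPM against 17.6, 7.38 and 2.30 CPM, but was not called (-2.12 ± 0.80, adjusted p = 0.0430).

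Lysophosphatidic acid (LPA) is a signalling lipid made by autotaxin and removed by lipid phosphatases. Of 10 genes of this axis, 4 were called higher in basal cells and 1 in luminal cells (median 1.47). The basal calls were the receptors *Lpar2* (1.75 ± 0.40) and *Lpar5* (2.46 ± 0.45) and the phosphatases *Plpp1* (3.59 ± 0.39, with 25.8% of its exon bases overlapping another gene) and *Plpp3* (3.25 ± 0.31). The luminal call was the phosphatase *Plpp2* (-1.53 ± 0.32), with 70.3, 84.5 and 77.3 CPM in luminal and 21.2, 35.7 and 23.6 CPM in basal cells. *Enpp2*, which encodes autotaxin, had 4.81, 1.95 and 8.35 CPM in basal and 1.01, 0.210 and 0.125 CPM in luminal cells and was not called (1.96 ± 0.85, adjusted p = 0.0833). *Lpar1* (1.19 ± 0.63), *Lpar3* (0.63 ± 0.29), *Lpar4* (0.82 ± 0.35) and *Lpar6* (0.84 ± 0.47) were not called.

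Of 27 cell cycle genes, none was called in either direction by limma, whose list median was -0.41. *Mki67*, a marker of dividing cells, had 55.6, 26.5 and 16.6 CPM in basal and 84.1, 32.8 and 22.3 CPM in luminal cells (-0.43 ± 0.66). In both cell types replicate 3 was the highest and replicate 6 the lowest, and summed over the list the values were 382, 253 and 165 CPM in basal and 446, 273 and 230 CPM in luminal cells. Of 17 immediate early and heat shock genes, which tissue dissociation is known to induce, 3 were called higher in basal cells (*Fos*, *Egr1* and *Dusp1*) and 2 in luminal cells (*Jund* and *Klf6*). Summed over the list, basal libraries held 43864, 17484 and 26838 CPM and luminal libraries 26743, 8619 and 14216 CPM. *Egr1* was the most abundant member in each basal library and in luminal replicate 3, *Klf6* in luminal replicate 5 and *Fosb* in luminal replicate 6. Replicate 3 was again the highest in both cell types. Without replicate 5 or without replicate 6 the basal calls in this list numbered 1, and neither luminal call was made by limma on the 6 libraries alone. The part of dissociation in these differences, and in those of other genes, was not tested.

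The 15 protein-coding genes with the largest called differences in each direction included many of those above. The basal ones, from the largest down, were *Myh11*, *Acta2*, *Scn7a*, *Mylk*, *Cxcl14*, *Cnn1*, *Col14a1*, *Krt5*, *Sparc*, *Mmp2*, *Adamts18*, *Fmod*, *Myl9*, *Postn* and *Il17b*, with differences from 7.39 to 6.73. *Scn7a*, of the sodium channel family, stood at 903, 1305 and 1757 CPM in basal and 10.1, 8.20 and 3.98 CPM in luminal cells (7.32 ± 0.64, adjusted p = 2.53e-11). *Cxcl14*, a chemokine, had 562, 655 and 975 CPM in basal and 6.65, 4.55 and 1.99 CPM in luminal cells (7.15 ± 0.69, adjusted p = 2.05e-10). *Il17b*, a cytokine, had 363, 189 and 417 CPM in basal and 3.63, 1.33 and 1.25 CPM in luminal cells (6.73 ± 0.48, adjusted p = 2.11e-13). For all 3 the lowest basal library was more than 50 times as high as the highest luminal one. With a replicate left out, differences of the 15 basal genes ran from 6.13 (*Myl9*) to 7.81 (*Scn7a*).

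The luminal ones were *Fgb*, *Slc5a5*, *Cldn4*, *Gpx3*, *Lalba*, *Csn2*, *Abcc8*, *Piezo2*, *Spp1*, *Prlr*, *Stc2*, *Cxcl15*, *Cited1*, *Nrxn3* and *Tph1*, with differences from -4.51 to -3.86. *Fgb*, the fibrinogen beta chain, stood at 237, 397 and 115 CPM in luminal and 5.91, 41.9 and 2.13 CPM in basal cells (-4.51 ± 0.74, adjusted p = 1.01e-05). *Slc5a5*, the sodium-iodide symporter, had 171, 152 and 226 CPM in luminal and 3.92, 22.1 and 4.68 CPM in basal cells (-4.39 ± 0.72, adjusted p = 9.03e-06). *Tph1*, an enzyme of serotonin synthesis, had 318, 135 and 88.9 CPM in luminal and 16.6, 24.0 and 1.87 CPM in basal cells (-3.86 ± 0.93, adjusted p = 0.00146). Basal replicate 5 was the highest basal library for each of these 3. With a replicate left out, differences of the 15 luminal genes ran from -5.26 (*Cldn4*) to -3.06 (*Spp1*), and *Csn2* alone from -5.08 to -3.21. Without replicate 6 the calls of *Spp1*, *Cxcl15*, *Cited1* and *Tph1* were lost, and without replicate 3 those of *Cited1* and *Tph1*.

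Markers of cells that the sort should remove were still read, at levels that differed between the lists. Of 5 measured antigens of the lineage depletion none was called by limma, and *Ptprc*, which encodes CD45, was at 0 in 4 of the 6 libraries and at 0.513 and 0.140 CPM in basal and luminal replicate 5. *Pecam1*, which encodes CD31, had 26.4, 55.6 and 22.3 CPM in basal and 6.45, 12.3 and 7.59 CPM in luminal cells (1.80 ± 0.87, adjusted p = 0.123). Of 11 endothelial markers none was called by limma, whose estimate of the spread draws on all 46 libraries, but their median difference was 1.17. Their sum was higher in each basal library (118, 184 and 95.6 CPM) than in its luminal partner (33.3, 61.1 and 27.5 CPM). Calls by the models of the 6 libraries alone are not given for the endothelial and immune lists. *Pecam1* was the most abundant of them in basal replicates 5 and 6, and *Eng* in the other 4 libraries. Of 11 immune markers none was called by limma, with sums of 71.5, 65.1 and 31.9 CPM in basal and 28.7, 36.2 and 21.8 CPM in luminal cells. *Cd74* was the most abundant of them in each library. Erythroid markers (2 measured) summed to at most 4.64 CPM.

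Among 10 fibroblast markers, *Fbln1* was called higher in basal cells (4.28 ± 0.69), with 29.4, 16.3 and 32.8 CPM against 0.907, 0.280 and 0 CPM, and the list median was 1.5. Their sums, led by *Dcn*, were 349, 241 and 390 CPM in basal and 131, 405 and 120.4 CPM in luminal cells, so luminal replicate 5 exceeded its basal partner. The models of the 6 libraries alone called 6 fibroblast markers higher in basal cells by limma and 4 by edgeR. *Pdgfra*, which defines many fibroblasts, had 12.3, 7.48 and 21.0 CPM in basal and 3.12, 4.20 and 11.6 CPM in luminal cells, and *Mfap5* and *Dpt* did not pass 4 CPM in any library. Of 9 pericyte markers, 4 were called higher in basal cells (*Rgs5*, *Pdgfrb*, *Cspg4* and *Mcam*) and *Notch3* in luminal cells. *Pdgfrb* stood at 14.3, 13.3 and 26.7 CPM in basal and 0.706, 0.210 and 0.125 CPM in luminal cells (3.78 ± 0.62, adjusted p = 8.54e-06), while *Higd1b* was at 0 in all 6 libraries. The sums were 165, 184 and 201 CPM in basal and 257, 178 and 216 CPM in luminal cells, led by *Mcam* in each basal library and by *Notch3* in each luminal library. Without replicate 6 the basal calls of this list numbered 2. Of 5 adipocyte markers measured, *Plin4* was called higher in basal cells and *Lpl* in luminal cells (not without replicate 3 or without replicate 6), and their sums were 36.7, 65.8 and 48.9 CPM in basal and 74.9, 28.9 and 35.5 CPM in luminal cells. Of 6 Schwann cell markers, *Mbp* was called higher in luminal cells, and their sums, led by *Sox10* (which epithelial cells of the gland also express) in 5 of the 6 libraries and by *Mbp* in luminal replicate 5, were 231, 241 and 309 CPM in basal and 217, 199.6 and 256 CPM in luminal cells. The part of other cell types in the matrix and contractile differences was not tested.

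**Figure D4:**
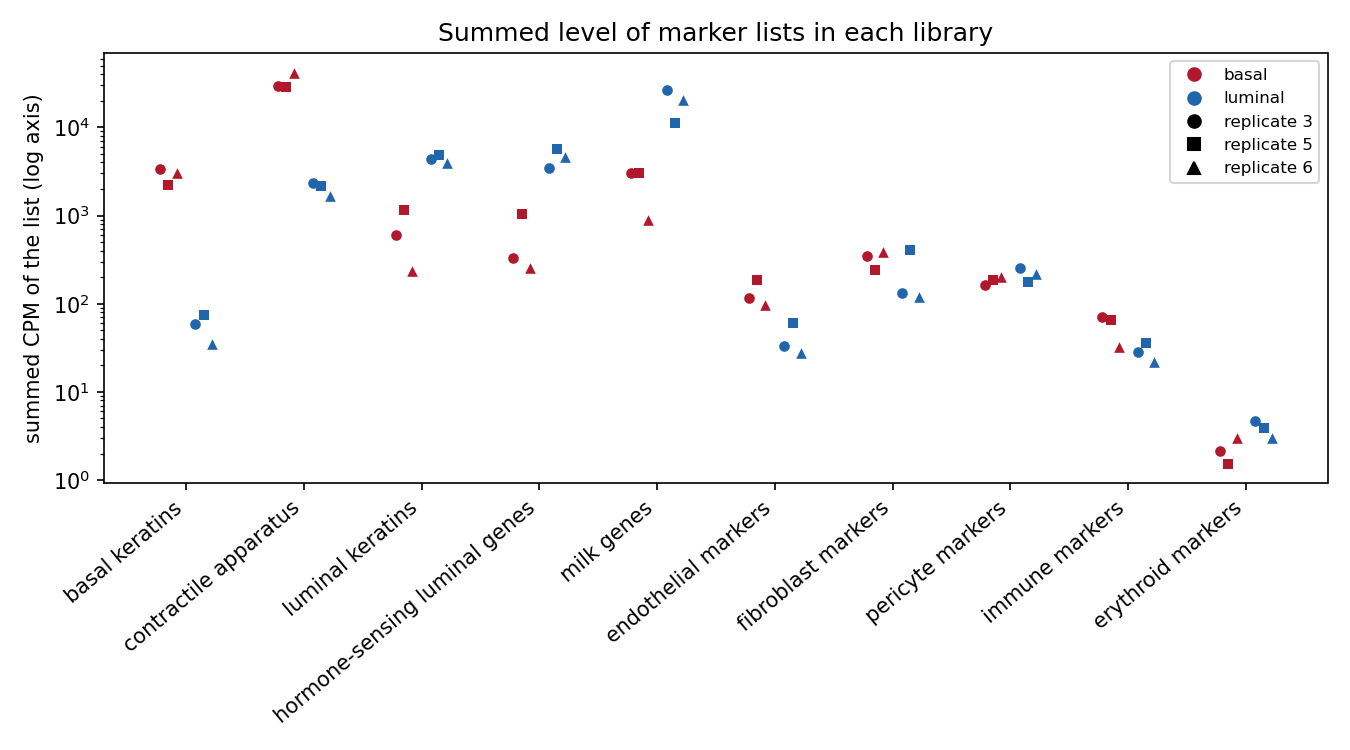
Summed CPM (log axis) of 10 marker lists in each of the 6 libraries at 10 weeks, basal in red and luminal in blue, with the replicate given by the shape of the point. Luminal keratins, hormone-sensing genes and milk genes were lowest in basal replicate 6 among the 6 libraries, and endothelial markers were higher in each basal library than in any luminal library.

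The difference between the cell types at 10 weeks was then set against the same difference at the other 7 time points. Across 10010 genes with a mean of at least 5 CPM in the 6 libraries, the differences at 10 weeks had a correlation of 0.95 with those at 4 months in mice that had not been pregnant. The correlation was also 0.95 with those 4 weeks after weaning. It was 0.92 for pregnancy day 3.5, 0.81 for pregnancy day 14.5, 0.77 and 0.72 for lactation days 3 and 10, and 0.60 for 2 days after weaning. These are descriptions across genes, and each point shares its libraries with all others. At 4 months, 1596 genes were called higher in basal cells, of which 1331 were also called at 10 weeks (83.4% of the calls at 4 months and 75.1% of those at 10 weeks). For luminal cells the shared calls numbered 671, or 74.97% and 62.2%, and no gene was called in opposite directions. At 2 days after weaning, 111 genes were called in opposite directions.

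No gene was called by limma in the test of the 10-week difference against the 4-month difference (0 of 17078, 0%), and 565 genes (3.31%) had an unadjusted p under 0.05. No other tool was run on this comparison. On simulated data of 17078 genes this comparison recovered 87% of genes changed 8-fold and 31% of those changed 4-fold. The simulation gave every gene the same spread beyond counting error and changed only genes with a mean of at least 5 CPM. Its shares need not hold for genes that vary more or are read less. Against the mean of the other 7 time points, 81 genes (0.474%) were called more basal at 10 weeks and 58 (0.34%) more luminal. The 10-week libraries were the only ones in their sequencing lane, so the time point and the lane cannot be told apart. These counts rest on all 3 replicates: leaving out any replicate gave 15 to 17 and 11 to 17 calls. Without the replicate block they were 29 and 24, and without the libraries from 2 days after weaning they were 48 and 84.

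Among the genes more luminal at 10 weeks was *Notch3*. Its difference was -2.51 at 10 weeks, -1.68 at 4 months and -2.65 at pregnancy day 3.5, and then 2.80, 4.43 and 3.11 at lactation days 3 and 10 and 2 days after weaning. At 10 weeks *Notch3* averaged 34.0 ± 15.3 CPM over the basal and 187 ± 27.9 CPM over the luminal libraries (SD, n = 3 each). At lactation day 10 the means of *Notch3* were 3163 CPM over 2 basal and 143 CPM over 3 luminal libraries. The 10-week difference was below the mean of the others by -3.32 ± 0.48 (adjusted p = 0.000118). *Heyl*, a Notch target, was also called, by -3.28 ± 0.57. *Trpc6*, a cation channel gene, had 11.9, 21.3 and 15.9 CPM in luminal and 0.517, 2.87 and 0.596 CPM in basal cells at 10 weeks, and its difference of -3.01 compared with 4.63 at lactation day 10. *Piezo2*, a mechanosensitive channel gene, had 334, 248 and 185 CPM in luminal and 10.1, 45.2 and 5.71 CPM in basal cells, a difference of -4.05 compared with 3.18 at lactation day 3. *Col8a1*, *Abcc8* and *Egflam*, the other members of the 6 largest, were likewise negative at 10 weeks, 4 months, pregnancy day 3.5 and 4 weeks after weaning and positive at the other 4 time points.

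Among the genes more basal at 10 weeks, *Emb*, which encodes the adhesion protein embigin, had 159, 96.0 and 141 CPM in basal and 11.1, 7.57 and 5.10 CPM in luminal cells. Its difference was 3.92 at 10 weeks, 2.66 at 4 months and -3.05 at lactation day 10. *Pappa*, a protease that cleaves IGF-binding proteins, had 426, 271 and 264 CPM in basal and 14.1, 3.43 and 3.61 CPM in luminal cells. Its difference was 5.53 at 10 weeks, but 6.14 at pregnancy day 3.5 and -1.43 at lactation day 10. *Slpi*, a protease inhibitor, had a difference of 2.03 at 10 weeks, 1.61 at 4 months and 1.45 at 4 weeks after weaning, but -3.54 at 2 days after weaning. *St6gal1* (2.14), *Tox* (3.90) and *Slc39a4* (0.96, not called between the cell types at 10 weeks) completed the 6 largest. Of the 12 genes, *Emb*, *Notch3*, *Trpc6* and *Piezo2* kept their call when any replicate was left out, and *Pappa* and *Tox*, with adjusted p of 0.00984 and 0.00991, lost it whichever replicate was left out. Of the listed genes, *Lgr4*, *Sfrp1*, *Lamb3* and *Lpar2* were called more basal at 10 weeks, and *Notch3*, *Heyl* and *Grb10* more luminal. The difference of *Lgr4* was 2.93 at 10 weeks and 0.30 on average over the other time points.

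**Figure D5:**
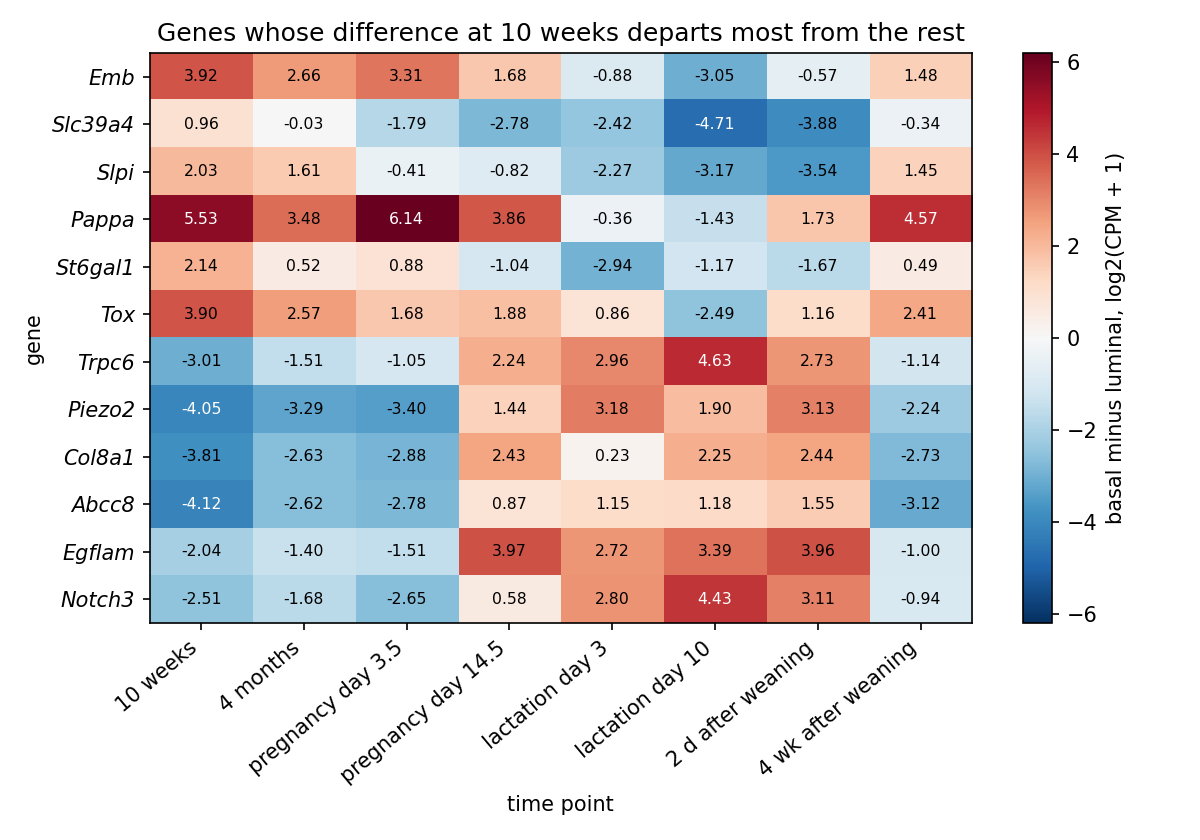
Difference between basal and luminal cells, on log2(CPM + 1), at each of 8 time points for the 12 genes whose 10-week difference departed most from the mean of the other 7. Red is higher in basal and blue higher in luminal cells. The 6 lower genes are blue at 10 weeks, 4 months, pregnancy day 3.5 and 4 weeks after weaning and red at the other 4 time points.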

How the data were processed

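The authors amplified the RNA (Ovation RNA-Seq System V2), aligned reads with GSNAP to mouse NCBI build 37 and counted them per Ensembl gene with HTSeq. For the 17078 genes in the table used here, the deposited values are a normalised signal in CPM: reads over the effective library size from edgeR. The strand setting of the counting is not given in the sources used here. Values are whole multiples of 1 read (within 0.01 of a read for 100% of values), and 3 reads, worth 0.210 to 0.373 CPM in the 6 libraries, were taken as the floor. Floors cover counting error only, since amplified reads include copies. Of the columns in the table, 0 had no sample. Gene symbols came from a GRCm38 annotation (16897 identifiers matched, 181 did not), and no coordinates of the data are given.

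limma 3.58.1 (R 4.3.3) was fitted to log2(CPM + 1) of all 46 libraries, with 16 group means, a mean-variance trend and the sort as a replicate block (consensus correlation 0.179). Basal and luminal libraries of a replicate share a pool of mice, and their deviations from the group means correlated by 0.39, 0.29 and 0.22 across 10580 genes. On simulated data of 17078 genes the comparison at 10 weeks recovered 87% of genes changed 4-fold and 100% of those changed 8-fold, with 0 false calls. Every simulated gene had the same spread beyond counting error, and only genes with a mean of at least 5 CPM were changed. Genes that vary more or are read less may be recovered less often. Among the alternatives, the quasi-likelihood test of edgeR 4.0.16 was run on the whole reads of the 6 libraries. In a list's median, genes at 0 in every library of a cell type were also set at 3 reads over the group, which moved the IGF axis from 1.24 to 1.52, the fibroblast markers from 1.50 to 1.59 and no other list.

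Named genes are the members of 32 lists, the 15 protein-coding genes with the largest called difference per direction (mean of at least 5 CPM, same sign in 3 pairs), and the 6 per direction that departed most from the other time points. The members and lists were chosen with earlier results of these data known. Lists are described by counts, with no set test. Reads of close relatives, such as actins, keratins, caseins and *Hspa1a* with *Hspa1b*, are uncertain. Some members of the lists are not reported here.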

Additional observations from a re-analysis of the deposited data

Results flagged for a closer look

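The difference between basal and luminal cells at 10 weeks departed from the mean of the other 7 time points in 12 named genes, by a direct test in the limma model. It was more basal at 10 weeks for *Emb* (3.26), *Slc39a4* (3.24), *Slpi* (3.05), *Pappa* (2.96), *St6gal1* (2.84) and *Tox* (2.75), and more luminal for *Trpc6* (-4.27), *Piezo2* (-4.15), *Col8a1* (-3.68), *Abcc8* (-3.58), *Egflam* (-3.49) and *Notch3* (-3.32), all on the log2 scale. Of these, *Pappa*, *Tox* and *Col8a1* lost the call whichever replicate was left out, *Slc39a4*, *Slpi* and *St6gal1* without replicate 5 or 6, *Abcc8* without replicate 3 or 6, and *Egflam* without replicate 3. None of the 12 was called against 4 months alone. Lane and amplification batch differ between most time points but are shared by both cell types of a sort at 10 weeks, and their part was not tested.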

How the results depend on the processing

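Counts at 10 weeks stayed within 1.5 times under a pseudocount of 0.1 or 5, a filter on the mean, rescaling by median ratios, no replicate block, no libraries from 2 days after weaning, the 6 libraries alone with a replicate block (1896 basal and 1106 luminal calls), edgeR (1800 and 1063) and an FDR of 0.05 (2095 and 1371). Leaving out a replicate gave 1202 to 1478 basal and 499 to 880 luminal calls. Against the other time points the calls were 52 and 23 with a pseudocount of 0.1, 29 and 24 with no replicate block, 214 and 242 at an FDR of 0.05, 48 more basal calls without the libraries from 2 days after weaning, and 15 to 17 and 11 to 17 without a replicate. Against 4 months each alternative run gave 0 calls.

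Of the 30 genes with the largest differences, 4 lost a call in 6 of 360 refits, all without replicate 3 or 6. Of the 12 genes set against the other time points, 8 lost a call in 28 of 120 refits. No sign reversed. Precision is limited by 3 pairs and, for low genes, by depth.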

Other observations

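Axon guidance cues, secreted and membrane proteins that steer growing axons and also shape epithelia, lay mostly on the basal side: 11 of 16 were called higher in basal cells and 1 in luminal cells (median 1.97). *Slit3* stood at 128, 130.1 and 190.4 CPM in basal and 2.42, 1.12 and 1.74 CPM in luminal cells (5.77 ± 0.67, adjusted p = 1.16e-08), and *Slit2* had 66.3, 67.0 and 75.8 CPM against 2.22, 1.75 and 2.49 CPM. *Robo1* and *Robo2*, receptors for slits, were called on the same side (2.24 and 4.52). *Ntn1*, netrin-1, was the luminal call (-2.07 ± 0.43), with 88.2, 101 and 160 CPM in luminal and 25.8, 48.5 and 13.9 CPM in basal cells, while its relative *Ntn4* had 104, 169 and 299 CPM in basal and 5.44, 15.8 and 17.9 CPM in luminal cells (3.78 ± 0.63). The call of *Ntn1* was lost without replicate 6.

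Receptors and ligands of the EGF family were split between the layers. Of 15 EGF and FGF receptors and EGF ligands, 3 were called higher in basal cells (*Egfr*, *Nrg1* and *Fgfr4*) and 6 in luminal cells (*Erbb2*, *Erbb3*, *Erbb4*, *Areg*, *Hbegf* and *Btc*), with a median of -0.66. *Egfr* stood at 506, 460 and 608 CPM in basal and 86.2, 108 and 133 CPM in luminal cells (2.27 ± 0.41), and *Erbb3* at 34.4, 61.5 and 18.5 CPM in basal and 259, 251 and 324 CPM in luminal cells (-2.98 ± 0.49). In the IGF axis, 6 of 14 genes were called higher in basal cells and *Grb10* in luminal cells (median 1.24), the latter not without replicate 6. *Igfbp3* had 337, 194 and 283 CPM in basal and 2.62, 2.03 and 2.37 CPM in luminal cells (6.32 ± 0.47), and *Igf1r*, the IGF1 receptor, differed by 2.03 ± 0.35. *Insr*, the insulin receptor, had 162, 174 and 179 CPM in basal and 133, 155 and 157 CPM in luminal cells and was not called (0.21 ± 0.39).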
